A study of Mus musculus with 38 samples.

Results

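The 10 genes described here are receptors by which macrophages and microglia take up debris, lipoproteins, microbes and dying cells, and they were chosen by name from 55487 counted genes. They are the phagocytic C-type lectins Mrc1 and Clec7a, the class A scavenger receptors Msr1 and Marco, the haemoglobin and multiligand receptors Cd163 and Stab1, the receptor kinases Mertk and Axl, the lipoprotein receptor Scarb1 and the lipopolysaccharide co-receptor Cd14. Scavenger receptors bind polyanionic or modified ligands and carry them to lysosomes. Efferocytosis is the engulfment of dying cells, in which Mertk and Axl recognise exposed phosphatidylserine through the bridging protein Gas6, and Mertk also through Pros1. Receptors of this kind are used by microglia in the brain and by macrophages in most tissues.

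RNA sequencing covered 38 mouse libraries in 18 groups, from BV2 cells, GL261 cells and bone marrow-derived macrophages (BMDM). BV2 is 1 immortalised microglial line, GL261 is 1 glioma line, here stably carrying the pEGFP-N1 plasmid, and BMDM are primary cells of wild-type genotype whose age, sex and number of donor mice are not given in the labels used here. The first experiment held monocultures and mixed cultures, BV2 being seeded onto GL261 at 1 to 2 and BMDM at 1 to 1, kept for 16 h at 21% oxygen (normoxia) or under 0.1% (hypoxia). In a separate panobinostat experiment without GL261, BV2 or BMDM were kept for 16 h with DMSO, the solvent, at either oxygen level, or in hypoxia with panobinostat, which blocks histone deacetylases, at 10 nM. Groups held 2 libraries each, or 3 for BMDM from co-culture at either oxygen level.

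By the GENCODE annotation of GRCm38, which is the mm10 build of the submitters' processing notes, Mrc1 lies at chr2:14229392-14332057 on the plus strand, Clec7a at chr6:129461591-129472779 on the minus strand, and Msr1 at chr8:39581685-39642673 on the minus strand. Marco lies at chr1:120474538-120505024 (minus), Cd163 at chr6:124304656-124330527 (plus) and Stab1 at chr14:31139013-31168641 (minus). Mertk lies at chr2:128698956-128802894 (plus), Axl at chr7:25757273-25788705 (minus) and Scarb1 at chr5:125277087-125341094 (minus). The exons of Cd14, merged over its annotated transcripts, form 1 unbroken stretch. Exons of 9 members shared no bases with exons of another gene. Stab1 shared 112 exon bases, or 1.09% of its exon length, with Nt5dc2 on the opposite strand, and whether the authors counted by strand is not given in the sources used here.

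Promoter sequence from RefSeq (GRCm38.p6) was at hand for Mrc1, Clec7a, Marco, Cd163, Stab1, Mertk and Axl. The 250 bases before the start of Mertk and Axl are shown because these 2 kinases of 1 family moved with oxygen in both cell types, and those of Marco because it was the member that held a match to a searched motif, here in capitals. All run 5′ to 3′ on the strand of the gene.
Mertk promoter, chr2:128698665-128698914: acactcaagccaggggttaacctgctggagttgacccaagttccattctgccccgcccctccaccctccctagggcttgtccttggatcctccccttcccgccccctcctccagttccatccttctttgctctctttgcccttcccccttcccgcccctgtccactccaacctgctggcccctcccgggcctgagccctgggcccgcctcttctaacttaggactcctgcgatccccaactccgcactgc
Axl promoter, chr7:25788734-25788983: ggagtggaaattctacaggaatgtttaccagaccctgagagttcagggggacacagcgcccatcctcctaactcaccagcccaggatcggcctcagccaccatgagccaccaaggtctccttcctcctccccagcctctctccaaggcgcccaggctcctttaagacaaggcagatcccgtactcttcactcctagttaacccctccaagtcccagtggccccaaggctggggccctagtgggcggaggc
Marco promoter, chr1:120505025-120505274: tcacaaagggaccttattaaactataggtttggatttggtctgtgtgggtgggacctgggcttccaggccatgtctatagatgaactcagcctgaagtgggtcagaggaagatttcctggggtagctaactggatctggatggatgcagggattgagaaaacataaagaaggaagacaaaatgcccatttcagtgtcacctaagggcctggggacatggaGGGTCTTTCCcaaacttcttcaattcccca
The motifs were searched on both strands: ACGTG and GCGTG (the core bound by hypoxia-inducible factors) and CACGTG (an E-box, which contains ACGTG). Also searched were GAGGAAGT (bound by PU.1, the myeloid factor), TGANTCA (bound by AP-1), TTCNNNGAA (bound by STAT factors) and a loose pattern resembling the NF-kappa B motif. ACGTG or GCGTG was in none of the 7 members' windows and in 38.6% of the windows of equal length before 27025 mouse promoter starts. Marco held a match to the NF-kappa B-like pattern from 30 to 21 bases before its start, a pattern in 1.4% of those windows. In this pattern the T and C that follow the opening G bases of the Marco match could be any base. No stricter form of the NF-kappa B motif was searched, and binding was not tested. Of the other motifs, CACGTG was in 6.05% of all windows, GAGGAAGT in 2.44%, TGANTCA in 6.87% and TTCNNNGAA in 7.18%, and in no member's. GC content was 63.6% before Mertk, 60.0% before Axl and 47.6% before Marco, against a median of 52.0%.

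Some facts of the libraries bear on these genes. Totals ran from 9634700 to 27238933 counts, so that the 3 counts allowed by a count of 0 stand for 0.110 to 0.311 CPM (counts scaled to a common library total). All 10 myeloid markers, such as Csf1r and Ptprc, had counts in every BV2 and BMDM group, while the microglial markers Sall1 and Siglech were each at 0 in 6 of the 7 BV2 groups. RNA of the partner made up 0.76% ± 0.271 (SD, n = 2) of BV2 co-culture libraries in normoxia and 2.22% ± 0.2025 in hypoxia, judged by the median of genes found in GL261 alone. In BMDM from co-culture the share was 2.43% ± 1.21 (SD, n = 3) in normoxia and 3.74% ± 2.32 in hypoxia. The BMDM libraries of the panobinostat experiment stood apart: the summed level of 6 fibroblast and stroma markers, among them Col1a1, was 23237 and 20453 CPM with DMSO in normoxia, 2674 and 13839 with DMSO in hypoxia and 8758 and 14357 with panobinostat, against 70.8 to 595 CPM in the 10 BMDM libraries of the first experiment. In those 6 libraries the summed myeloid markers were at 9033 and 6604 CPM, 2610 and 4540, and 741 and 2102 in the same order, against 5539 to 10208 in the first experiment. In bulk RNA, fewer cells of a type and less RNA per cell cannot be told apart.

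Per exon length, Cd14 was the highest member in both BV2 and BMDM grown alone in normoxia, and different members came next. Levels are CPM per kilobase of exon (RPKM). In BV2 alone in normoxia, Cd14 was at 32.8 ± 3.84 RPKM (SD, n = 2), Scarb1 at 23.6 ± 1.16, Clec7a at 10.96 ± 0.325, Mertk at 3.48 ± 0.589 and Mrc1 at 3.25 ± 0.492. Stab1 followed at 0.967 RPKM, Axl at 0.248, Msr1 at 0.199 and Marco at 0.170. Mertk overlapped with Mrc1, and Msr1 with Marco, while the other neighbours in this order had separate libraries. Cd163 had 0 counts in 7 of the 8 BV2 libraries of the first experiment and 1 in the other.

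In BMDM alone in normoxia, Cd14 was again highest at 363 ± 80.9 RPKM (SD, n = 2), and Stab1, low in BV2, came next at 120.6 ± 2.00. Axl at 38.5 ± 1.35 and Msr1 at 35.6 ± 4.64 overlapped, as did Mrc1 at 15.6 ± 7.12 and Scarb1 at 14.3 ± 0.0221. Mertk at 7.71 ± 0.390 lay above Clec7a at 2.57 ± 0.395, which overlapped with Marco at 2.02 ± 0.393. Cd163 was lowest at 0.335 ± 0.0018. GL261 cells alone in normoxia held Axl at 95.3 ± 6.30 RPKM, Scarb1 at 17.4 ± 0.550, Cd14 at 3.41 ± 1.17 and Mertk at 2.83 ± 0.0340. Msr1, Marco and Cd163 had 0 counts in GL261 cells grown alone at either oxygen level.

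The tables of BV2 and BMDM were made separately in the first experiment, so the 2 cell types were compared in the panobinostat experiment, with DMSO in normoxia. There 7 members were higher and 2 lower in BMDM, where 44.2% of all tested genes differed (27.1% higher and 17.1% lower). These and later levels, unless said otherwise, are CPM scaled by trimmed-mean (TMM) factors within a fit. Msr1, which binds modified low-density lipoprotein, was at 774 and 437 CPM in BMDM and at 1.84 and 0.580 in BV2, a log2 difference of 8.97 ± 1.39 (SE; edgeR adjusted p = 0.000687). Axl was at 260.4 and 462 CPM in BMDM and at 3.54 and 0.644 in BV2 (7.44 ± 0.88, edgeR adjusted p = 0.000133). Stab1 differed by 6.94 ± 1.41, Marco by 6.38 ± 0.86, Mrc1 by 4.31 ± 0.97 and Cd14 by 3.23 ± 0.57 on the log2 scale. The libraries of the 2 cell types did not overlap for any member.

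Scarb1, the receptor for high-density lipoprotein, was lower in BMDM, at 78.7 and 114 CPM against 326 and 243 in BV2 (log2 difference -1.56 ± 0.33, edgeR adjusted p = 0.00373). Clec7a, the beta-glucan receptor dectin-1, was at 3.70 and 9.39 CPM in BMDM and at 20.05 and 18.6 in BV2 (-1.55 ± 0.51, edgeR adjusted p = 0.0321). Mertk was at 33.5 and 34.8 CPM in BMDM and at 17.2 and 11.2 in BV2, a difference of 1.27 ± 0.66 that did not pass (edgeR adjusted p = 0.144). Cd163, which takes up haptoglobin-bound haemoglobin, had 55 and 18 counts in BMDM and 1 and 2 in BV2 (edgeR adjusted p = 0.0181). The stromal marker sums of 23237 and 20453 CPM in these BMDM libraries stand against 19.5 and 15.01 in BV2, and their part in the differences was not tested.

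Several of these values rest on 1 library. Without replicate 2 of the BV2 libraries, Mrc1 differed by 3.66 (edgeR adjusted p = 0.0552), Msr1 by 8.33, Marco by 5.50, Axl by 6.64, Clec7a gave an adjusted p of 0.0808 and Cd163 one of 0.0972. Without replicate 1 of BV2, Mrc1 differed by 5.38, Msr1 by 9.97, Marco by 8.53 and Axl by 9.07, while Clec7a gave an adjusted p of 0.0897 and Cd163 one of 0.111. Without replicate 1 of BMDM, Cd14 differed by 2.29, Cd163 by 3.49 (adjusted p = 0.117) and Clec7a gave an adjusted p of 0.185. Without replicate 2 of BMDM, Clec7a differed by -2.38 and Cd163 by 5.27. Replicate 1 of BV2 with DMSO in normoxia had the higher CPM in its own fit for Mrc1 (15.6 against 4.80), Axl (3.72 against 0.696), Msr1 (1.94 against 0.626) and Marco (1.19 against 0.139).

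**Figure D1:**
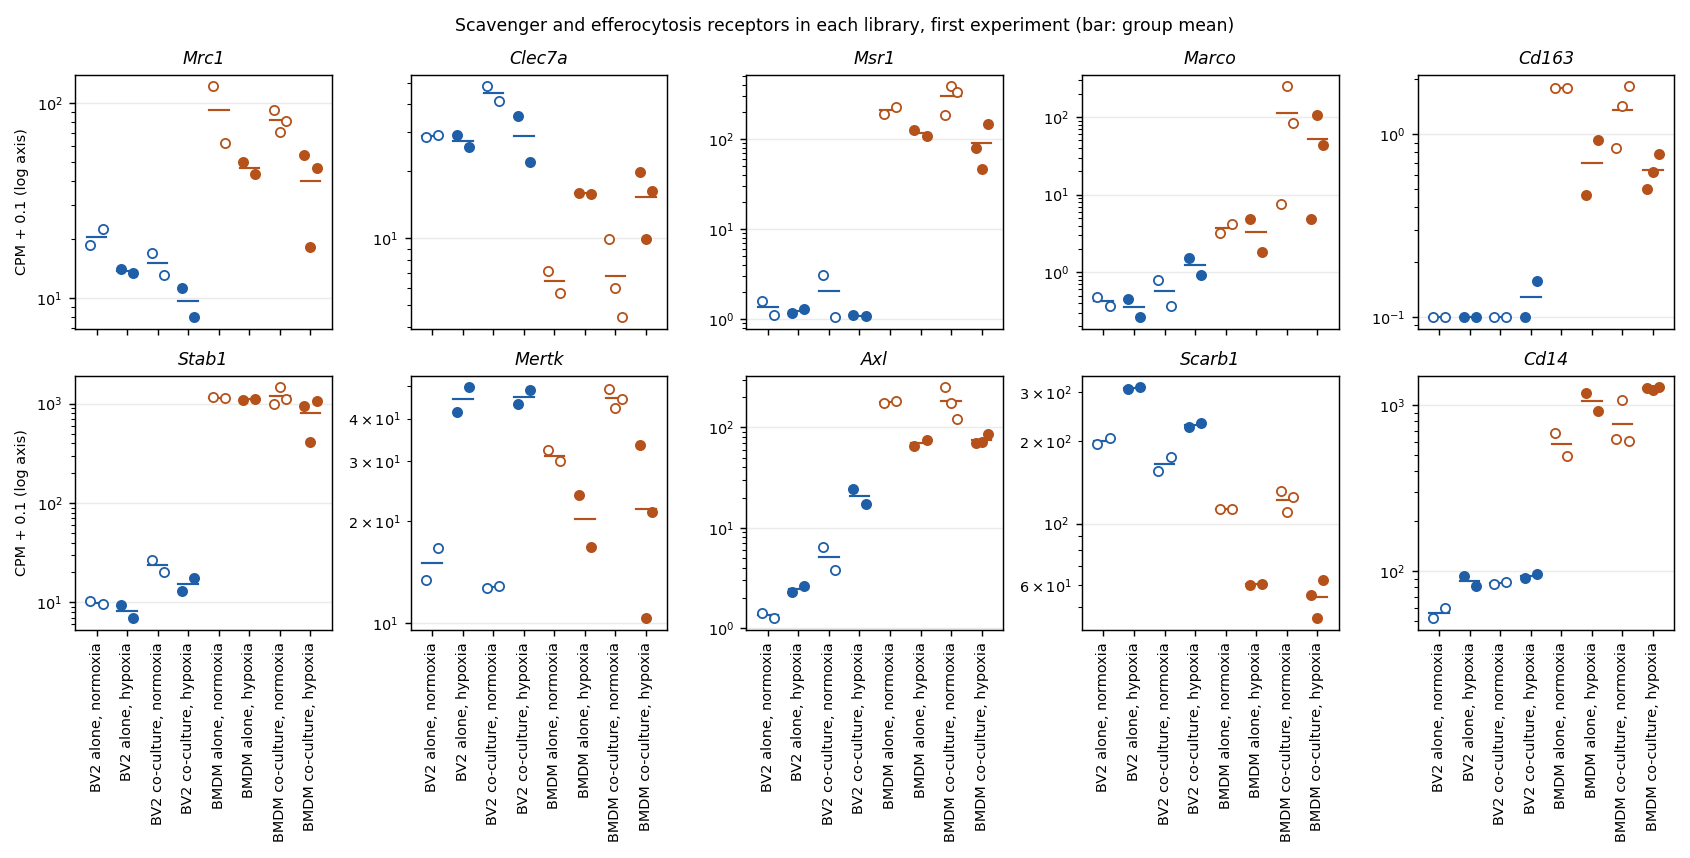
Each panel plots 1 member as CPM plus 0.1 on a log axis in the BV2 and BMDM libraries of the first experiment; points are libraries, bars are group means, open points are normoxia, filled points hypoxia, blue is BV2 and orange is BMDM. Mertk and Scarb1 lie higher in hypoxia in BV2 and lower in hypoxia in BMDM, and Marco is high in 2 of 3 co-culture BMDM libraries at each oxygen level.

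In BV2 grown alone, hypoxia raised 4 members and lowered 1, of 9 tested. Across all genes 61.9% passed in this comparison (30.9% higher and 31% lower). Mertk, the receptor kinase that binds dying cells through Gas6 and Pros1, was at 13.3 and 16.6 CPM in normoxia and at 41.8 and 49.4 in hypoxia. The groups did not overlap, and the rise was 1.61 ± 0.14 on the log2 scale (SE; edgeR adjusted p = 5.76e-08). Axl was at 1.32 and 1.16 CPM, from 31 and 26 counts, and at 2.18 and 2.53 in hypoxia (0.92 ± 0.34, edgeR adjusted p = 0.0254).

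Scarb1 and Cd14 rose less, but with little spread. Scarb1 went from 194 and 204 CPM to 309 and 313, a log2 change of 0.65 ± 0.11 (edgeR adjusted p = 6.36e-05). Cd14, which hands lipopolysaccharide to Tlr4, went from 52.2 and 60.4 CPM to 94.1 and 81.4 (0.64 ± 0.12, edgeR adjusted p = 0.000174). Mrc1, the mannose receptor, was the member that fell, from 18.5 and 22.5 CPM to 14.0 and 13.3 (-0.58 ± 0.17, edgeR adjusted p = 0.0084). None of these 5 had overlapping libraries.

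The other 4 members did not pass in BV2 alone. Clec7a was at 28.4 and 29.0 CPM in normoxia and at 29.1 and 25.8 in hypoxia (log2 change -0.06 ± 0.17). Stab1, which takes up modified lipoprotein and matrix protein, was at 10.2 and 9.54 CPM and then at 9.32 and 6.86 (-0.29 ± 0.20). Msr1 lay between 1.02 and 1.49 CPM and Marco between 0.165 and 0.383 CPM over these 4 libraries. The calls of Axl and Mrc1 depend on single libraries: without hypoxia replicate 2 the edgeR adjusted p was 0.111 for Axl and 0.0604 for Mrc1, without normoxia replicate 2 it was 0.0942 and 0.0875, and without normoxia replicate 1 it was 0.052 for Axl.

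In BV2 taken from co-culture, hypoxia raised 4 members and lowered 3, against 67.3% of all genes (35.2% higher and 32.1% lower). Mertk went from 12.6 and 12.8 CPM to 44.2 and 48.5, close to its values in BV2 alone (1.87 ± 0.14, edgeR adjusted p = 1.58e-08). Scarb1 went from 156 and 174 CPM to 224 and 231 (0.47 ± 0.11, edgeR adjusted p = 0.00119). Axl went from 6.36 and 3.68 CPM to 24.0 and 17.1 (2.06 ± 0.24, edgeR adjusted p = 1.29e-06). The partner share times the Axl level of GL261 alone comes to 4.56 and 2.72 CPM in normoxia, within 6.79 and 3.78 unscaled CPM. In hypoxia it comes to 13.7 and 15.6 within 23.3 and 16.5. The part of partner RNA in the rise of Axl was not tested. Marco, a collagen-like receptor for bacteria and particles, went from 0.692 and 0.267 CPM to 1.45 and 0.817, from 5 to 26 counts a library (1.30 ± 0.54, edgeR adjusted p = 0.045).

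Lower members in these cells were both C-type lectins and Stab1. Clec7a went from 48.3 and 41.2 CPM to 35.5 and 21.9 (-0.64 ± 0.17, edgeR adjusted p = 0.0042). Stab1 went from 26.8 and 20.2 CPM to 12.97 and 17.5 (-0.62 ± 0.18, edgeR adjusted p = 0.00734). Mrc1 went from 16.9 and 13.1 CPM to 11.1 and 7.87 (-0.65 ± 0.19, edgeR adjusted p = 0.00595). No library of 1 oxygen level overlapped the other for these 3. Cd14 at 83.6 and 85.8 CPM and then 91.0 and 96.0 did not pass (0.14 ± 0.12), nor did Msr1 at 2.97 and 0.960 and then 1.00 and 0.992.

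Of these 7 calls, Marco's ended with DESeq2 (adjusted p = 0.165), with no filter on low counts (0.0633), in a fit of the 2 groups only (0.0565), without co-culture hypoxia replicate 1 (0.401), without co-culture normoxia replicate 2 (0.355) and without any 1 of the 4 monoculture libraries (0.0622 to 0.0733), and its change was 2.06 without co-culture normoxia replicate 1. Mrc1 did not pass in edgeR without co-culture hypoxia replicate 2 (adjusted p = 0.0503) or co-culture normoxia replicate 1 (0.0718), nor Stab1 without the latter (0.101).

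In the DMSO-treated BV2 cells of the panobinostat experiment, hypoxia raised 1 of 9 tested members, against 37.5% of all genes (17.2% higher and 20.2% lower). That member was Mertk, at 18.1 and 12.1 CPM in normoxia and at 54.2 and 31.4 in hypoxia (1.502 ± 0.30, edgeR adjusted p = 0.00404). Scarb1 was at 343 and 262 CPM and then at 323 and 312 (0.07 ± 0.22), and Cd14 at 111 and 97.5 CPM and then at 136 and 144 (0.43 ± 0.23, edgeR adjusted p = 0.165). Axl was at 3.72 and 0.696 CPM and then at 1.97 and 1.12, so that its libraries overlapped. Mertk was thus called higher in hypoxia in all 3 comparisons of BV2, with separate libraries in each, while Axl and Scarb1 were called in the 2 of the first experiment.

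**Figure D2:**
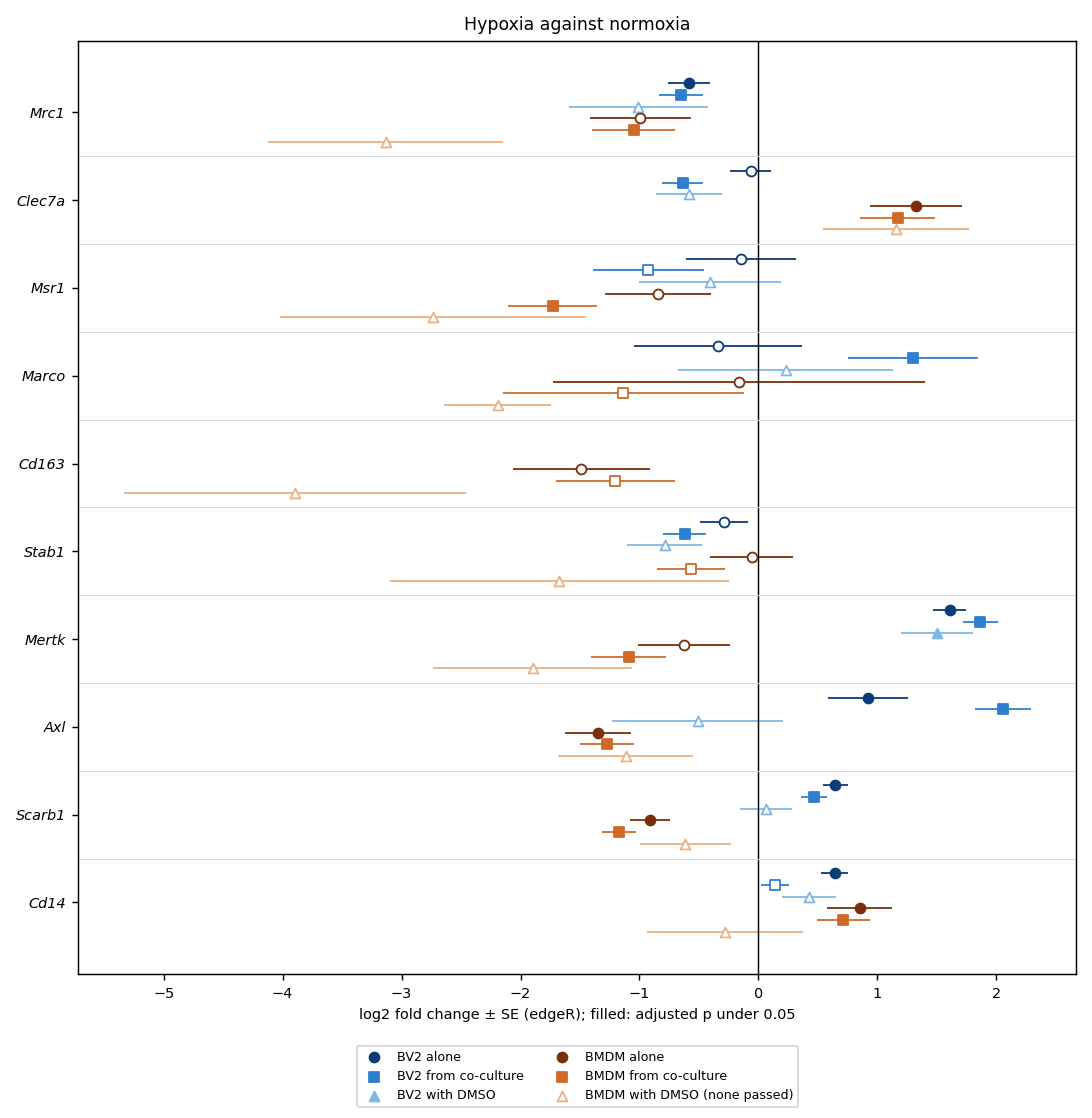
Log2 fold change in hypoxia against normoxia with its SE for each member in 6 comparisons, as fitted by edgeR. Blue symbols are BV2, orange symbols BMDM, and filled symbols have an adjusted p under 0.05; Mertk is above 0 in the 3 BV2 comparisons and below 0 in the 3 BMDM comparisons, and Mrc1 is below 0 in all 6.

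In BMDM alone, hypoxia lowered Axl and Scarb1, which it raised in BV2 alone. There 2 of the 10 members fell and 2 rose, where 23.9% of all genes passed (13.3% higher and 10.6% lower). Axl went from 176 and 184 CPM to 65.5 and 75.5 (-1.35 ± 0.28, edgeR adjusted p = 0.00613), and Scarb1 from 113.0 and 112.6 CPM to 60.0 and 60.1 (-0.91 ± 0.17, edgeR adjusted p = 0.00395). Clec7a rose from 7.01 and 5.61 CPM to 15.9 and 15.8 (1.33 ± 0.38, edgeR adjusted p = 0.0292). Cd14 rose from 678 and 491 CPM to 1181 and 926 (0.85 ± 0.27, edgeR adjusted p = 0.044).

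For these 4 the libraries of the 2 oxygen levels did not overlap. Mertk, at 32.2 and 29.9 CPM and then 23.7 and 16.7, also had separate libraries but did not pass (-0.62 ± 0.39, edgeR adjusted p = 0.272). Mrc1 was at 123 and 62.5 CPM and then at 49.7 and 43.2 (-0.99 ± 0.42, adjusted p = 0.113), and Msr1 at 191 and 228 and then 125 and 108 (-0.85 ± 0.45, adjusted p = 0.195). Stab1 stayed above 1000 CPM in all 4 libraries, at 1168 and 1134 and then 1095 and 1118. Cd163 had 31 and 27 counts in normoxia and 5 and 12 in hypoxia (-1.49 ± 0.57, edgeR adjusted p = 0.083).

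Leaving out any 1 of the 4 monoculture libraries ended the calls of Clec7a (edgeR adjusted p = 0.11 to 0.19) and Cd14 (0.0914 to 0.326), and leaving out hypoxia replicate 1 ended that of Axl (0.0546). Cd14 also missed the threshold without co-culture hypoxia replicate 3 (0.0579) or co-culture normoxia replicate 1 (0.0568), which share the fit. With only the 2 groups in the fit 8 members passed, among them Mrc1, Msr1, Cd163 and Mertk, all lower.

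In BMDM from co-culture, with 3 libraries a group, 5 members fell in hypoxia and 2 rose, against 34.8% of all genes (17.5% higher and 17.3% lower). Msr1 went from 185, 385 and 331 CPM to 79.7, 45.9 and 146 (-1.73 ± 0.37, edgeR adjusted p = 0.00442). Axl went from 252, 174 and 121 CPM to 69.1, 71.2 and 85.8 (-1.28 ± 0.23, edgeR adjusted p = 0.00152). In hypoxia Axl was at least 4-fold higher in GL261 than in BMDM alone, and the partner share times its level in GL261 alone comes to 11.4, 21.4 and 41.6 CPM within the 67.0, 65.3 and 87.4 unscaled CPM of the hypoxic libraries, and to 6.21 to 17.7 within 126 to 267 in normoxia. Its part in the fall was not tested. Scarb1 went from 131, 109.7 and 125 CPM to 55.0, 45.3 and 62.4 (-1.17 ± 0.14, edgeR adjusted p = 0.000161).

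Mertk was called here, in the opposite direction to BV2, and the difference between the cell types was not tested in this experiment. It went from 48.9, 42.9 and 45.6 CPM to 33.4, 10.3 and 21.2 (-1.09 ± 0.32, edgeR adjusted p = 0.0207). Mrc1 went from 92.6, 71.0 and 81.2 CPM to 54.4, 18.1 and 46.3 (-1.05 ± 0.35, edgeR adjusted p = 0.0372). For all 5 every hypoxic library lay below every normoxic one. Clec7a rose from 9.88, 5.88 and 4.34 CPM to 19.9, 9.83 and 16.2, with hypoxia replicate 2 just under the highest normoxic library (1.17 ± 0.32, edgeR adjusted p = 0.0144).

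Cd14 rose from 626, 1074 and 607 CPM to 1273, 1229 and 1281 (0.71 ± 0.22, edgeR adjusted p = 0.0286). Stab1, Cd163 and Marco did not pass. Stab1 was at 1003, 1467 and 1124 CPM and then at 947, 412 and 1066, and Cd163 had 12, 20 and 18 counts and then 4, 7 and 8. Hypoxia replicate 2 was the lowest library for Mrc1, Clec7a, Msr1, Stab1, Mertk and Scarb1, and it also had the lowest summed myeloid markers of the 3, 5539 CPM against 7965 and 7384. Without it Mrc1 had an edgeR adjusted p of 0.0527. Mrc1 also did not pass without co-culture normoxia replicate 1 (0.088) or 3 (0.0739) or with only the 2 groups in the fit (0.0505), and Cd14 did not pass without co-culture normoxia replicate 1 (0.112) or 3 (0.0978) or hypoxia replicate 3 (0.0609).

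In DMSO-treated BMDM, edgeR called 0 of the 10 members in hypoxia, against 0.483% of all genes (0.469% higher and 0.0134% lower). At an unadjusted p under 0.05 there were 3, and DESeq2 called 2, Mrc1 and Marco, beside 3786 and 2260 of all 14914 genes. Mrc1 was at 234 and 126 CPM in normoxia and at 3.93 and 37.4 in hypoxia, Marco at 66.1 and 32.8 and then 12.1 and 9.53, and Mertk at 31.8 and 32.4 and then 2.36 and 15.1. Stab1 was at 1747 and 1953 CPM in normoxia and at 49.98 and 1111 in hypoxia. These 4 had no overlap between oxygen levels, but for Mrc1, Mertk and Stab1 the 2 hypoxic libraries lay far apart, and replicate 1, the lower one, also had the lower myeloid sum of 2610 CPM. Axl went from 247 and 431 CPM to 77.8 and 235, the lower value again in the library with the lower stromal sum of 2674 CPM, and the part of stromal and myeloid content in these values was not tested.

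Whether hypoxia acted differently on the 2 cell types was tested with DMSO only, as an interaction over 12 libraries, and edgeR called 0 of the 10 members, against 0.664% of all genes (0.207% higher and 0.458% lower). At an unadjusted p under 0.05 there were 2 members, and DESeq2 called 1, beside 2974 and 1176 of all 15955 genes. That one was Mertk, where the hypoxia effect was lower in BMDM by 3.49 ± 0.95 log2 units, with an adjusted p of 0.0999 in edgeR and 0.007525 in DESeq2. Without BMDM hypoxia replicate 2, which leaves 1 such library, replicate 1 with the lower myeloid sum, and assumes that it varies like the other groups, the difference for Mertk was -5.30 (edgeR adjusted p = 0.00692), and Mrc1 (0.0289) and Msr1 (0.0419) passed as well.

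In normoxia, BV2 libraries from co-culture with GL261 had 4 members higher than in monoculture and none lower. Of all genes 14.9% passed (5.77% higher and 9.14% lower). These comparisons share their libraries with those of hypoxia above. Stab1 went from 10.2 and 9.54 CPM alone to 26.8 and 20.2 with GL261 (1.24 ± 0.19, edgeR adjusted p = 0.000683). Cd14 went from 52.2 and 60.4 CPM to 83.6 and 85.8 (0.59 ± 0.12, edgeR adjusted p = 0.00478), and Clec7a from 28.4 and 29.0 to 48.3 and 41.2 (0.64 ± 0.17, edgeR adjusted p = 0.0212). No libraries overlapped for these 3. The partner share of a library times the level in GL261 alone came to at most 0.00859 CPM for Stab1, 0.0562 for Cd14 and 0.0013 for Clec7a.

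Axl was the fourth, from 1.32 and 1.16 CPM to 6.36 and 3.68 (1.99 ± 0.31, edgeR adjusted p = 0.000762). It was also the 1 member at least 4-fold higher in GL261 cells than in BV2, at 480 ± 31.7 unscaled CPM alone in normoxia and 663 ± 180 in hypoxia (SD, n = 2). The partner share of each co-culture library times the Axl level of GL261 alone gives 4.56 and 2.72 CPM in normoxia, beside a measured excess over BV2 alone of 5.54 and 2.53 unscaled CPM. In hypoxia the same product is 13.7 and 15.6 CPM, beside an excess of 21.0 and 14.2. With the Axl level of GL261 cells taken from co-culture the products in hypoxia are 20.8 and 23.7 CPM. The part of partner RNA in the Axl differences was not tested at either oxygen level.

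In hypoxia 3 members were higher and 1 lower in BV2 from co-culture, against 15.7% of all genes (8.13% higher and 7.57% lower). Axl went from 2.18 and 2.53 CPM to 24.0 and 17.1 (3.12 ± 0.26, edgeR adjusted p = 6.73e-07). Stab1 went from 9.32 and 6.86 CPM to 12.97 and 17.5 (0.91 ± 0.20, edgeR adjusted p = 0.00448). Marco went from 0.354 and 0.165 CPM to 1.45 and 0.817 (2.12 ± 0.60, edgeR adjusted p = 0.0238). Scarb1 fell from 309 and 313 CPM to 224 and 231 (-0.45 ± 0.11, edgeR adjusted p = 0.00796), again without overlap.

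Cd14, raised by co-culture in normoxia, was at 94.1 and 81.4 CPM alone and 91.0 and 96.0 with GL261 in hypoxia. The difference between the 2 hypoxia effects on Cd14 was -0.50 ± 0.17 and did not pass (edgeR adjusted p = 0.112). Of the 9 members, edgeR called 0 in that interaction, 3 had an unadjusted p under 0.05, DESeq2 called 0, and 2.19% of all genes passed (1.16% higher and 1.03% lower). Mertk was not called with co-culture at either oxygen level, with differences of -0.23 ± 0.15 in normoxia and 0.02 ± 0.13 in hypoxia.

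Some of these calls end without 1 library. Clec7a in normoxia had an edgeR adjusted p of 0.14 without co-culture replicate 1, 0.0768 without monoculture replicate 1 and 0.118 without monoculture replicate 2. Stab1 in hypoxia had 0.0807 without co-culture replicate 2 and 0.0782 without monoculture replicate 2. Marco in hypoxia had 0.215 without co-culture replicate 1, 0.0614 and 0.195 without monoculture replicates 1 and 2, and 0.0843 in DESeq2.

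**Figure D3:**
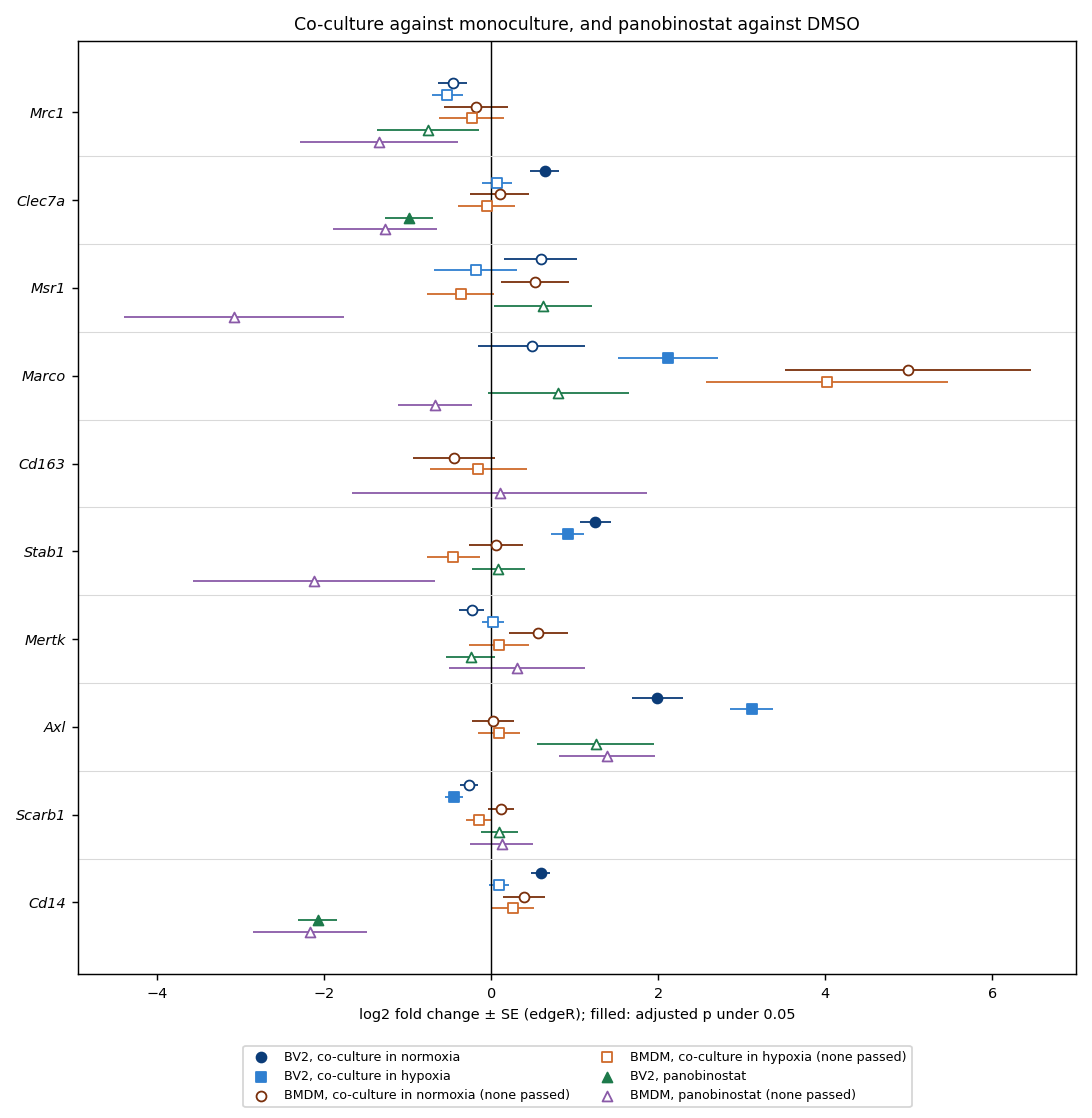
Log2 fold change with its SE for each member in co-culture against monoculture (circles in normoxia, squares in hypoxia) and in panobinostat against DMSO (triangles), as fitted by edgeR. Filled symbols have an adjusted p under 0.05. Axl and Stab1 are higher in BV2 co-culture libraries at both oxygen levels, and the part of partner RNA in Axl was not tested. Cd14 lies near -2 with panobinostat in both cell types, filled in BV2.

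In BMDM, edgeR called no member with co-culture at either oxygen level: 0 of 10 passed in normoxia, against 1.64% of all genes (1.57% higher and 0.0675% lower), and 0 in hypoxia, against 7.11% (4.06% higher and 3.05% lower). At each level 1 member, Marco, had an unadjusted p under 0.05, beside 1905 of all 14806 genes in normoxia and 3528 in hypoxia, and DESeq2 called it at both, beside 634 and 1733 genes. Marco was at 3.12 and 4.09 CPM alone in normoxia and at 7.41, 252 and 84.6 with GL261, a log2 difference of 4.99 ± 1.47 (adjusted p = 0.146 in edgeR and 0.0138 in DESeq2). In hypoxia it was at 4.73 and 1.73 CPM alone and at 4.82, 108 and 43.2 with GL261 (4.02 ± 1.45, adjusted p = 0.119 in edgeR and 0.0384 in DESeq2).

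The order of the 3 co-culture replicates for Marco was the same at both oxygen levels, with replicate 1 near the monoculture level and replicate 2 highest. Partner shares of replicates 1, 2 and 3 were 1.295%, 2.29% and 3.695% in normoxia and 1.72%, 3.22% and 6.28% in hypoxia. Replicate 1 was thus lowest for the share as for Marco, while replicate 3 was highest for the share only. The 8 GL261 libraries, from monoculture or co-culture with BV2, had 0 Marco counts. No GL261 library came from co-culture with BMDM, and the part of partner RNA in the Marco values was not tested. Without co-culture replicate 1, edgeR called Marco in normoxia (5.54, adjusted p = 0.0421) and in hypoxia (4.58, adjusted p = 0.0376). Mertk in normoxia, at 32.2 and 29.9 CPM alone and 48.9, 42.9 and 45.6 with GL261, was separate but not called (0.56 ± 0.35, edgeR adjusted p = 0.553). In the interaction of hypoxia and co-culture 0 members and 0% of all genes were called by edgeR, 0 members had an unadjusted p under 0.05, and DESeq2 called 0 members.

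Panobinostat in hypoxia lowered 2 of 9 members in BV2 and raised none, against 14.6% of all genes (7.21% higher and 7.39% lower). Its comparison shares the DMSO hypoxia libraries with that of hypoxia above. Cd14 was at 136 and 144 CPM with DMSO and at 26.5 and 39.7 with panobinostat, a fall of 2.08 ± 0.24 on the log2 scale (edgeR adjusted p = 0.00196). With the drug it lay below its level with DMSO in normoxia, 111 and 97.5 CPM. Clec7a went from 16.98 and 10.5 CPM to 6.68 and 7.21 (-0.98 ± 0.29, edgeR adjusted p = 0.0481).

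Cd14 passed in all alternatives tried, and Clec7a did not pass in edgeR without DMSO hypoxia replicate 1 (adjusted p = 0.264), panobinostat replicate 1 (0.255) or 2 (0.173), DMSO normoxia replicate 1 (0.0524) or 2 (0.0523), with a filter at a mean of 5 CPM (0.0612) or with only the 2 groups (0.0572). Mertk was at 54.2 and 31.4 CPM with DMSO and at 34.9 and 37.0 with panobinostat (-0.25 ± 0.29), and Scarb1 at 323 and 312 and then 358 and 321 (0.10 ± 0.22). Axl was at 1.97 and 1.12 CPM and then at 4.99 and 2.38, separate but not called (1.25 ± 0.70, edgeR adjusted p = 0.254). The summed myeloid markers of BV2 were 3783 to 4121 CPM with DMSO in hypoxia and 2758 to 3050 with panobinostat.

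**Figure D4:**
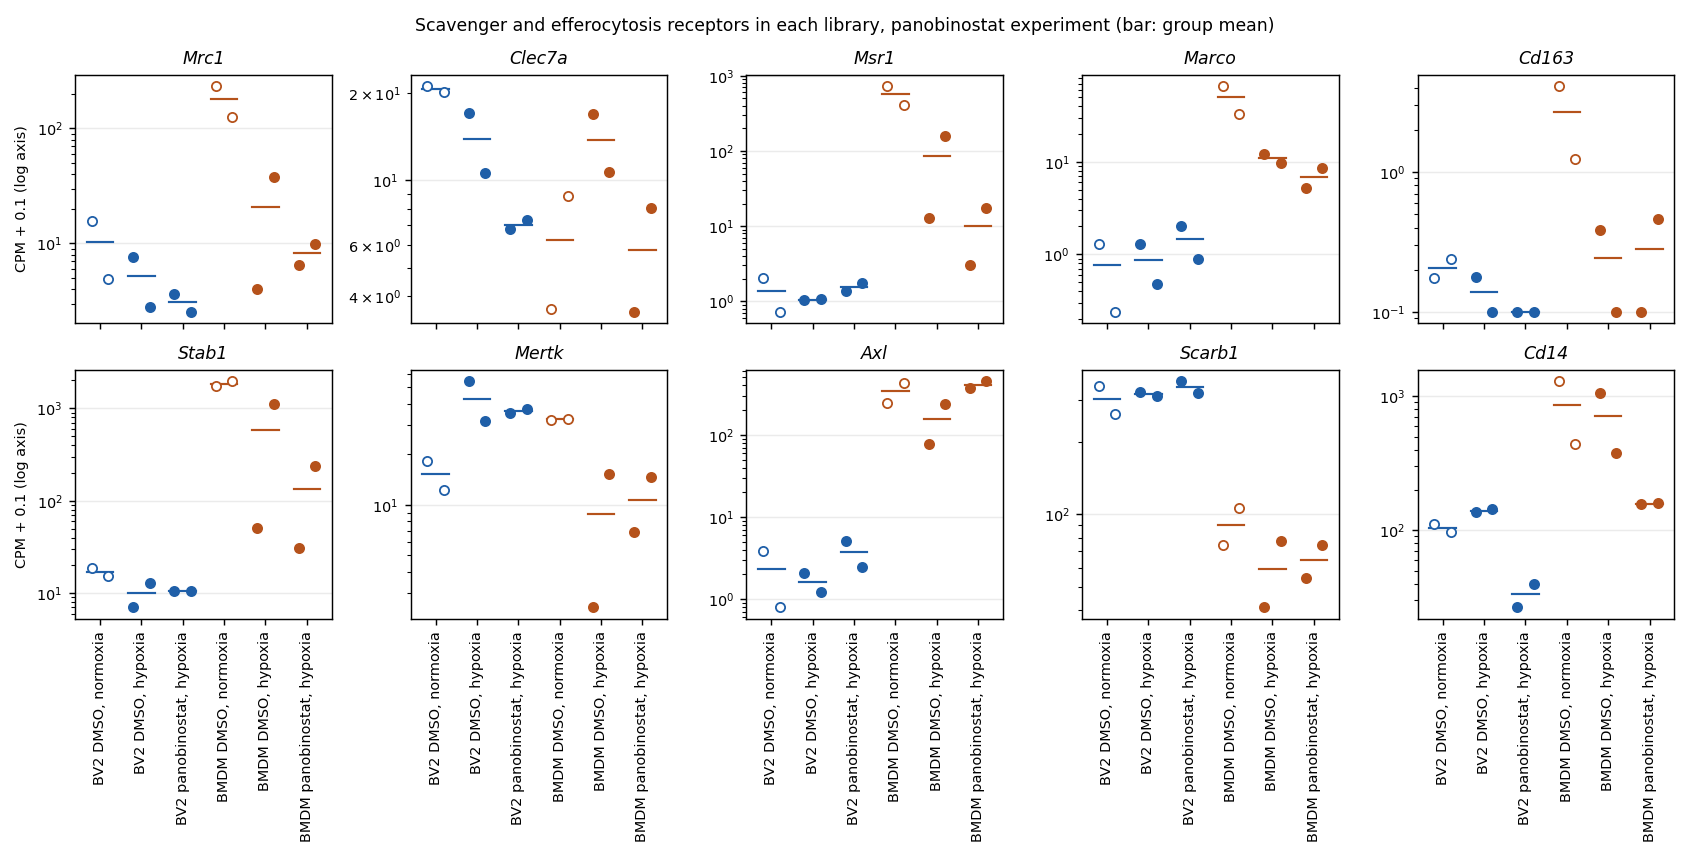
Each panel plots 1 member as CPM plus 0.1 on a log axis in the libraries of the panobinostat experiment; points are libraries, bars group means, open points normoxia, filled points hypoxia, blue BV2 and orange BMDM. Cd14 is lowest with panobinostat in both cell types, and Stab1, Msr1 and Mrc1 differ widely between the 2 hypoxic BMDM libraries with DMSO.

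In BMDM given panobinostat edgeR called 0 of 10 members and 0% of all genes. At an unadjusted p under 0.05 there was 1 member, and DESeq2 called 2, Cd14 and Msr1, beside 3868 and 2221 of all 14914 genes. Cd14 was at 1051 and 375 CPM with DMSO and at 157 and 159 with panobinostat (-2.17 ± 0.68, adjusted p = 0.122 in edgeR and 0.0147 in DESeq2). Both treated libraries lay below both control libraries. Msr1 was at 12.6 and 159 CPM and then at 2.90 and 17.3, so that the groups overlapped (-3.08 ± 1.32, adjusted p = 0.206 in edgeR and 0.0399 in DESeq2).

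Axl went the other way, from 77.8 and 235 CPM to 372 and 446 (1.39 ± 0.57, edgeR adjusted p = 0.194), without overlap. Cd163 had 4 and 0 counts with DMSO and 0 and 5 with panobinostat. Stab1 was at 49.98 and 1111 CPM and then at 30.9 and 236, and Mrc1 at 3.93 and 37.4 and then 6.46 and 9.74, both overlapping. Clec7a was at 16.8 and 10.6 CPM and then at 3.43 and 7.92 (-1.28 ± 0.62, edgeR adjusted p = 0.254). The summed myeloid markers were lower with panobinostat, 741 and 2102 CPM against 2610 and 4540, and the stromal sums were 8758 and 14357 CPM against 2674 and 13839. Their part in the members' values was not tested.

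Set against the summed myeloid markers of its own library, Cd14 was at 358 and 77.4 CPM per 1000 myeloid marker CPM with DMSO in hypoxia and at 236 and 85.0 with panobinostat, so that on this scale the BMDM groups overlapped. For BV2 the same ratio was 29.3 and 38.4 with DMSO and 8.53 and 15.1 with panobinostat, without overlap. Axl on this scale was at 26.5 and 48.5 with DMSO and at 560 and 239 with panobinostat in BMDM. The myeloid sums that divide these ratios were themselves lower with panobinostat. They were 741 and 2102 CPM against 2610 and 4540 in BMDM, and 3050 and 2758 against 4121 and 3783 in BV2. A lower sum raises the ratio, and its part was not tested. In the interaction of panobinostat with cell type, edgeR called 0 of 10 members, against 0.0251% of all genes (0.00627% higher and 0.0188% lower), 0 had an unadjusted p under 0.05, and DESeq2 called 0. For Cd14 that difference was -0.09 ± 0.75.

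**Figure D5:**
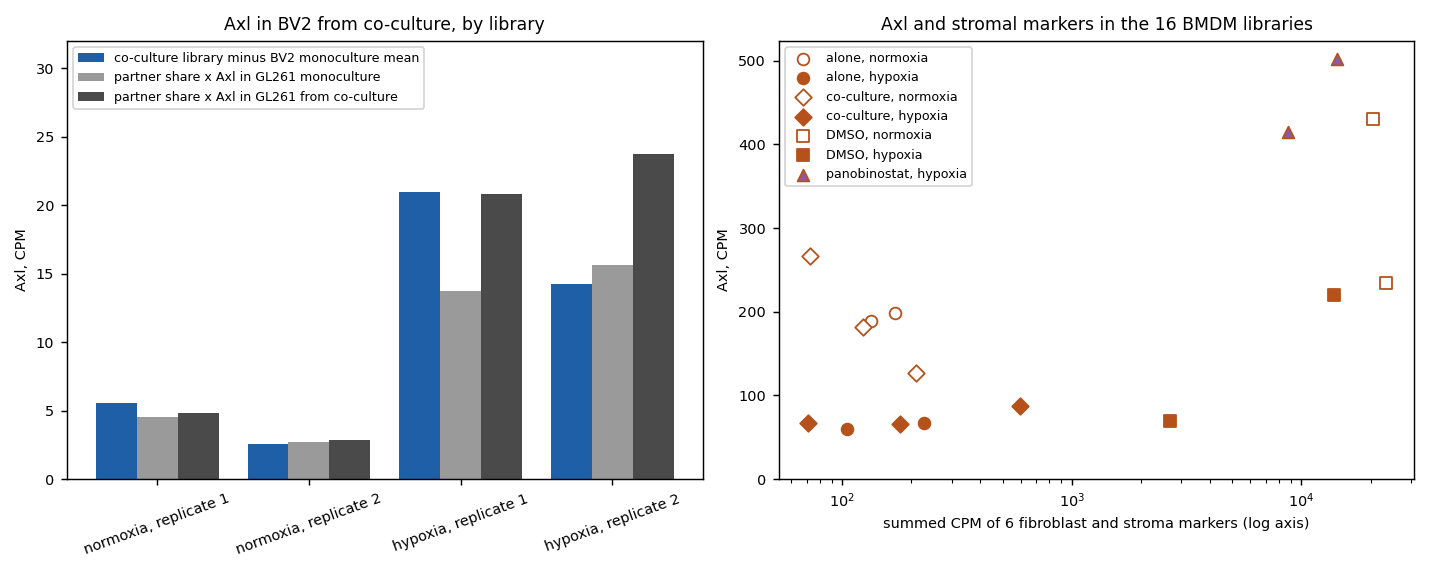
Left, Axl in each BV2 co-culture library as unscaled CPM above the mean of BV2 alone (blue) beside the partner share times the Axl level of GL261 grown alone (light grey) or taken from co-culture (dark grey). Right, Axl against the summed CPM of 6 stromal markers (log axis) in the 16 BMDM libraries; the 6 libraries of the panobinostat experiment lie at 2674 CPM or more on the x axis and the others at 595 or less.

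Of 156 related genes in 8 lists, 132 were tested in BV2 alone, where hypoxia raised 66 and lowered 20, or 65.2%, beside 61.9% of all genes (30.9% higher and 31% lower). Among receptors that share their ligands with the members, 5 of 13 other scavenger receptors rose and 1 fell, led by Colec12, a collectin that binds oxidised lipoprotein, from 291 to 1372 mean CPM (2.24 ± 0.12). Of 17 genes of the Cd14 and Tlr4 complex, 9 rose and 5 fell: the adaptors Ticam1 (17.1 to 121 CPM) and Ticam2 (13.8 to 96.9 CPM) rose, while Tlr2 (148 to 56.3 CPM), Tlr1 (27.9 to 11.8 CPM), Myd88 (98.5 to 42.2 CPM) and Ly86 (15.7 to 8.17 CPM) fell. Of 21 apoptotic-cell receptors, bridging molecules and opsonins 11 rose and 3 fell, and of 9 sheddases, which cut receptors off the surface, 4 rose and 1 fell, with Adam8 from 83.2 to 552 CPM. Of 12 genes of cholesterol efflux 9 rose and 1 fell, and of 22 engulfment genes 7 rose and 4 fell. The median change of the 9 tested members was -0.06 and that of all genes 0.

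BMDM alone in hypoxia gave 26 higher and 8 lower of 141 related genes, or 24.1%, beside 23.9% of all genes. Pros1, the bridging ligand of Mertk, fell from 35.9 to 9.99 mean CPM (-1.84 ± 0.31, edgeR adjusted p = 0.00218), and Nr1h3, the liver X receptor, fell from 38.9 to 13.7. Klf4 (56.6 to 267 CPM), Nr4a1 (33.7 to 180.5), Egr2 (6.86 to 44.9) and Ticam2 (14.0 to 58.1) rose, and the lectin Cd207 (168 to 81.5) and Rhbdf1 (6.86 to 2.22), a partner of the sheddase Adam17, fell. In BMDM from co-culture 27 rose and 34 fell, or 43.3% beside 34.8% of all genes, with Pros1 at 34.3 and then 7.17 CPM, and of 22 apoptotic-cell receptors, bridging molecules and opsonins 5 rose and 10 fell. The median change of the members was -0.73 in BMDM alone and -1.11 from co-culture, beside 0.03 for all genes in each.

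With co-culture in normoxia, 22 of 132 related genes rose and 21 fell in BV2, or 32.6%, beside 14.9% of all genes (5.77% higher and 9.14% lower). Nr4a1 (5.92 to 26.01 mean CPM), the lectin receptors Clec4d (39.3 to 73.8) and Clec10a (10.9 to 16.6) and the galectin Lgals3 (402 to 646) rose. Maf (46.3 to 24.2), Nceh1 (82.9 to 48.1), the cholesterol exporter Abca1 (53.9 to 32.2) and the engulfment gene Dock1 (25.8 to 15.6) fell, and of 22 engulfment genes 1 rose and 8 fell. The members' median was 0.59, beside -0.02 for all genes.

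Panobinostat raised 8 and lowered 18 of 125 related genes in BV2, or 20.8%, beside 14.6% of all genes (7.21% higher and 7.39% lower). The scavenger receptor Cd36, a receptor for oxidised lipoprotein and fatty acid, rose from 2.95 to 36.9 mean CPM (3.64 ± 0.29, edgeR adjusted p = 0.000448), and Anxa1, Nr4a1 and Tlr1 rose from 27.2, 13.2 and 3.66 CPM to 64.0, 67.7 and 11.4. The lectins Clec4e (59.7 to 16.4) and Clec4d (108 to 31.9) and the kinase Irak1 (220.2 to 74.3) fell. Of 15 C-type lectins and adaptors 0 rose and 5 fell, and of 16 genes of the Cd14 and Tlr4 complex 1 rose and 5 fell. In BMDM, edgeR called 0 of 139 related genes with panobinostat, where 50 had an unadjusted p under 0.05 and DESeq2 called 38, beside 3868 and 2221 of all 14914 genes.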

How the data were processed

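RNA was sequenced as polyA-enriched stranded libraries from cells fixed with 3% glyoxal, per the labels' protocols. The deposited values are whole-number counts per gene in 3 tables, made by the authors with Trimmomatic 0.36, STAR 2.6 and HTSeq 0.9.1 on mm10, per the submitters' processing notes, with Picard 2.17.1 named for the BV2 and GL261 libraries only. Counting options and the annotation are not given in the sources used here. All 38 columns matched a sample.

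The 10 members and the 8 lists of 156 related genes were chosen with earlier results of these data known. Genes were filtered with edgeR 4.0.16 (minimum count 10, minimum total 15), scaled by TMM and tested with its quasi-likelihood test in 5 fits: BV2 (8 libraries, 14432 genes), BMDM (10 libraries, 14806 genes), panobinostat BV2 (6 libraries, 13294 genes), panobinostat BMDM (6 libraries, 14914 genes) and both cell types with panobinostat (12 libraries, 15955 genes). P-values were adjusted by Benjamini-Hochberg over all genes of a fit, with a threshold of 0.05. DESeq2 1.42.0, DESeq2 size factors, no filter, a mean of at least 5 CPM, a replicate block, only the groups compared, leaving out genes higher in GL261, and leaving out each library were alternatives. Related genes are named where they passed with a mean of at least 10 CPM over all libraries of the fit and separate libraries, as the 4 largest changes in each direction, except where a gene is not reported here.

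Depth was 13548843 to 27238933 counts for the BV2 and GL261 libraries, 9909367 to 17000536 for BMDM and 9634700 to 15869246 for the panobinostat experiment, and floors of 3 counts cover counting error only. No 2 libraries of a group agreed within sampling noise (chi-square per degree of freedom 6.7 to 155.5 over 22 pairs). The labels state biological replicates for the first table, which holds BV2 and GL261, and elsewhere p-values measure only the spread between these samples, which may be technical. Same-numbered BMDM co-culture libraries of the 2 oxygen levels deviated together (correlations 0.55, 0.23 and 0.37). In the panobinostat experiment, with 2 libraries a group, same-numbered libraries correlated from 0.23 to 0.51 in BV2 and from 0.32 to 0.67 in BMDM. The tests given in the Results nevertheless took all libraries as unpaired, and the replicate number entered only as a block in an alternative. On simulated counts, 4-fold changes were recovered for 98% of genes in BV2 alone and for 81% in BMDM alone in hypoxia. With panobinostat they were recovered for 87% in BV2 and for 1% in BMDM. For 2-fold changes the shares were 87%, 29%, 33% and 1% in the same order. Promoter windows came from RefSeq and lengths from GENCODE.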

Additional observations from a re-analysis of the deposited data

Results flagged for a closer look

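In the first experiment 3 members had opposite signs of the hypoxia difference in BV2 and BMDM, with no overlap between the oxygen levels, and the difference between the cell types was not tested in that experiment because their tables were fitted separately. Grown alone, Mertk changed by 1.61 (log2) in BV2 and by -0.62 in BMDM, where it was not called, Axl by 0.92 and -1.35, and Scarb1 by 0.65 and -0.91. From co-culture, Mertk changed by 1.87 in BV2 and by -1.09 in BMDM, Axl by 2.06 and -1.28, and Scarb1 by 0.47 and -1.17. Axl from co-culture stands beside the partner RNA given above. With DMSO in the panobinostat experiment Mertk alone of the 3 was called in BV2, Scarb1 changed by 0.07 there and Axl by -0.51 with overlapping libraries, none of the 3 was called in BMDM, and edgeR called 0 of 10 members in the interaction of hypoxia with cell type.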

How the results depend on the processing

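Of 163 results for members, 43 passed the threshold, 26 of them in every alternative run, and none of the 43 changed sign in any. Leaving out single libraries ended 17 calls. DESeq2 ended 2 calls and gave 8 others, DESeq2 size factors changed none, and the filter at a mean of 5 CPM ended 1.

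The larger moves in the number of members called were as follows. Smaller ones are left out, such as Marco and Stab1 gained without the filter for hypoxia in co-cultured BMDM. Without the filter on low counts it was 7 in place of 4 for hypoxia in BMDM alone, 7 in place of 0 for DMSO-treated BMDM, 5 in place of 0 for panobinostat in BMDM, 2 in place of 1 for DMSO-treated BV2, 2 in place of 0 for the BV2 interaction, 1 in place of 0 for BMDM co-culture at each oxygen level, and 4 and 2 in place of 0 for the interactions of hypoxia and of panobinostat with cell type. DESeq2 gave 2 in place of 0 for hypoxia and for panobinostat in BMDM, and 1 in place of 0 for BMDM co-culture at each oxygen level and for hypoxia by cell type. With only the groups compared it was 8 in place of 4 for hypoxia in BMDM alone and 1 in place of 2 for panobinostat in BV2, where the filter at a mean of 5 CPM also gave 1.

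With the replicate number as a block no call was lost and 10 were gained: 4 in place of 1 for hypoxia in DMSO-treated BV2 (Mrc1, Clec7a and Stab1 added, all lower), 6 in place of 4 in BMDM alone (Mrc1 and Cd163, lower), 1 in place of 0 in DMSO-treated BMDM (Marco, lower), 3 in place of 2 for panobinostat in BV2 (Axl, higher), 2 in place of 0 for panobinostat in BMDM (Cd14, lower, and Axl, higher), and 1 in place of 0 for hypoxia by cell type (Mertk, lower in BMDM). The block left 7 calls for hypoxia in co-cultured BMDM and changed none there. Elsewhere groups share only numbers over 2 libraries, whose deviations correlated from -0.17 to 0.47 in BV2, 0.23 to 0.51 in panobinostat BV2 and 0.32 to 0.67 in panobinostat BMDM.

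Leaving out 1 library gave 3 to 5 calls for hypoxia in BV2 alone, 2 to 4 for BV2 co-culture in hypoxia, 0 to 1 for the BV2 interaction, 1 to 5 for hypoxia in BMDM alone, 0 to 1 for BMDM co-culture at each oxygen level, 1 to 3 and 0 to 2 for hypoxia in DMSO-treated BV2 and BMDM, 1 to 2 for panobinostat in BV2 and 0 to 3 for hypoxia by cell type. Where 1 library was left in a group, it was assumed to vary like the other groups. Comparisons whose number of calls moved less are left out of that list. A count of 0 allows up to 0.237 CPM in the shallowest BV2 library, which limits Cd163 there.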
